A study of Homo sapiens with 2 samples.

Results

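hsa-miR-21-5p, written miR-21-5p below, was followed through small RNA recovered from BT549 cells, an established human line of mesenchymal-like, triple-negative breast cancer. It is the guide strand of MIR21 and 1 of 407 miRNAs in the count table. It was chosen by its name, with earlier results of these data known. The cells of both groups overexpress SNHG15, a long non-coding RNA, joined to MS2 hairpins, which are RNA loops bound by the phage coat protein MCP. Lysate was exposed to amylose resin that held MCP fused to maltose binding protein (labelled Amylose resin- MBP-MCP, called MBP-MCP resin here), or to amylose resin alone (bare resin). The comparison addresses which miRNAs are carried down with SNHG15. Each resin gave 1 library, which leaves every difference without a replicate check, and no p-value was computed. No library came from MBP-MCP resin and cells without the tagged RNA, so binding to the protein and binding through SNHG15 cannot be told apart. The MBP-MCP library held 202560 miRNA reads and the bare library 111414.

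miR-21-5p is one of the best known oncogenic miRNAs. MIR21 is transcribed under the control of STAT3 and AP-1, its transcript is cut by Drosha and Dicer, and the guide strand in Argonaute represses tumour suppressor messages such as PDCD4, TPM1 and RECK. Its level is raised in breast cancers and in many other solid tumours. SNHG15 is a host gene of small nucleolar RNAs whose spliced transcript has been described as binding miRNAs.

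MIR21 lies at chr17:59841266-59841337 on the plus strand of GRCh38, within the bounds of the protein-coding gene VMP1 (GENCODE 29). In that annotation the hairpin falls in an exon of 1 VMP1 transcript, VMP1-216, which is classed as a retained intron, and in no other VMP1 transcript. The mature strand, 22 bases long with 36.4% G and C, covers chr17:59841273-59841294. The sequences below, from RefSeq on GRCh38.p14, show the hairpin with miR-21-5p in capitals, and then the mature strand and miR-590-5p, which shares its seed, each with the seed (bases 2 to 8, which pair with targets) in capitals.
MIR21 hairpin: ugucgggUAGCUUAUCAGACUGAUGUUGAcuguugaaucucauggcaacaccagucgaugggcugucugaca
miR-21-5p: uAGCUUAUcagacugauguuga
miR-590-5p: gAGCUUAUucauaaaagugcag
Of the 357 named miRNAs in the table, 321 had a mature sequence to compare, and 2 of these, miR-21-5p and miR-590-5p, carry this seed. Beyond the seed the strands differ.

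miR-21-5p had 8475 reads in the MBP-MCP library and 4937 reads in the bare library. That is 4.18% of the MBP-MCP reads (95% exact Clopper-Pearson interval 4.10 to 4.27) and 4.43% of the bare reads (4.31 to 4.55). In reads per 1000000 miRNA reads of the library (RPM) it stood at 41839 on MBP-MCP resin and 44312 on bare resin. It ranked 7 in the MBP-MCP library and 7 in the bare library. The same 6 miRNAs stood above it in both, and took 67.4% of the MBP-MCP reads and 64.8% of the bare reads. The median miRNA of the table had 12 reads in the MBP-MCP library and 8 in the bare library. miR-21-5p was thus among the most read miRNAs on either resin, also on the resin with no coat protein. Intervals here and below cover counting error only.

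**Figure D1:**
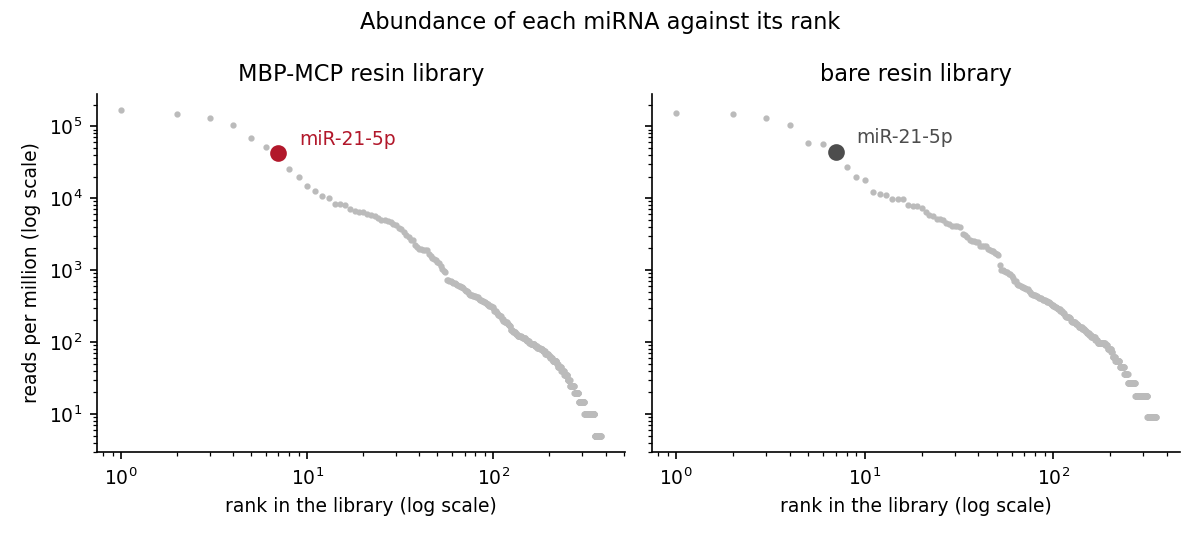
RPM of each miRNA with reads (y axis, log scale) against its rank (x axis, log scale), in the MBP-MCP library on the left and the bare library on the right, with 1 library per resin. The coloured point is miR-21-5p, at rank 7 in both libraries, on the steep upper end of the curve.

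Scaled by total reads, the ratio of miR-21-5p on MBP-MCP resin to bare resin was 0.944 (95% interval 0.912 to 0.978), a log2 ratio of −0.08. With this scaling the share was slightly lower on MBP-MCP resin, by more than counting error. Intervals that lie off 1 were common. Among the 161 miRNAs that reached 20 reads in either library, 34.8% had one, 11.2% above 1 and 23.6% below 1. All but the 6 ranked above miR-21-5p had fewer reads than it and so wider intervals. The 34.8% is therefore not the rate at its depth. A rule of size, at least 2-fold, took in 5.59% of the 161, 2.48% higher and 3.11% lower, and miR-21-5p was not among them. All of those had low counts: with at least 50 reads in a library, 0 were higher and 0 lower by this rule. The miRNAs past 2-fold included numbered predictions, rows without an established miRNA name. Some predictions had the same counts as one another, such as 20 reads on MBP-MCP resin and 0 on bare resin. Others, with 25 reads in each library, were among the intervals below 1. The percentages above include these rows, and whether they count the same reads again was not tested. The log2 ratio of miR-21-5p lay near the middle of the 161, with 73 above it and 87 below it, and the median of all was −0.16. In the authors' deposited values miR-21-5p has a log2 fold change of −0.08 and is not called. With 1 library per group, the deposited p-values cannot measure variation between pulldowns, so they are not given here.

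The sign of this ratio rested on how the libraries were scaled. The log2 ratio of miR-21-5p was 0.11 with TMM factors, 0.19 with DESeq2 size factors and 0.04 with totals that leave out the 5 most abundant miRNAs. The intervals of the ratio were 1.04 to 1.12, 1.10 to 1.19 and 0.993 to 1.07 in that order of scalings. Those scalings moved every miRNA by the same amount, 0.20, 0.28 and 0.12 on the log2 scale. The TMM and DESeq2 factors were estimated with no read minimum. The DESeq2 factors rest on the 319 miRNAs with reads in both libraries. The median miRNA of the table had 12 reads on MBP-MCP resin and 8 on bare resin. Whether miR-21-5p stood higher or lower on MBP-MCP resin was therefore not settled by these 2 libraries. A share also says nothing of amount: less of this miRNA on a resin and more of the others cannot be told apart.

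**Figure D2:**
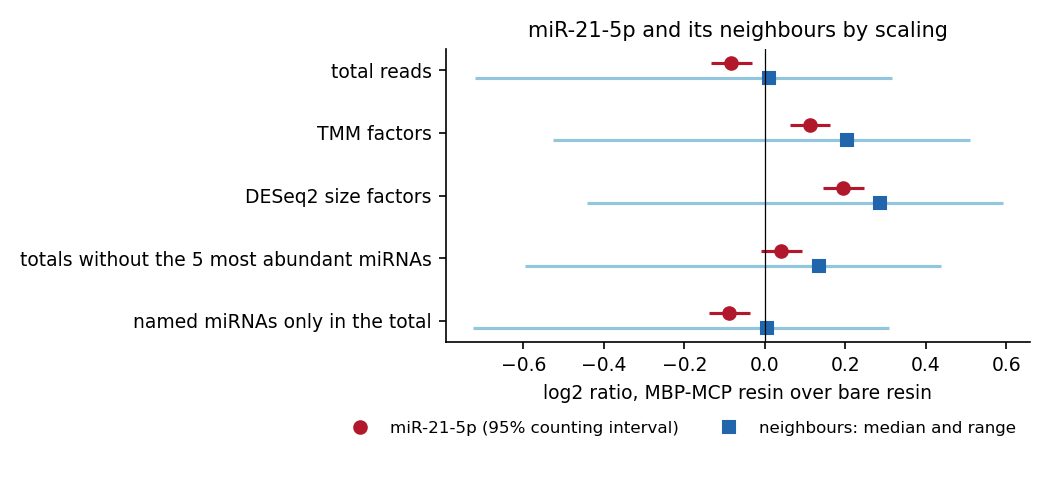
Log2 ratio of MBP-MCP resin over bare resin (x axis) under each of 5 scalings of the libraries (y axis). Circles are miR-21-5p with its 95% counting interval, and squares with lines are the median and range of 16 miRNAs of similar abundance. The circle lies left of 0 with total reads and with named miRNAs only, and right of 0 under the other scalings, always 0.09 below the square.

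A comparison that no scaling changes sets miR-21-5p against miRNAs of similar abundance within each library. The set took up to 10 miRNAs on each side in mean RPM. Only 6 exist above miR-21-5p, so the set held 16, from 7899 to 160961 RPM around 43076 for miR-21-5p. They are abundant guide strands of other families, 21 to 24 bases long, and 0 of the 16 share its seed. Sequences of the nearest on each side, with seeds in capitals, are shown because these are the miRNAs it was read against.
let-7b-5p: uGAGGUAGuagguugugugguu
miR-125b-5p: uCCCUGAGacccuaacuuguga
miR-191-5p: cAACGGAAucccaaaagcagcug
miR-93-5p: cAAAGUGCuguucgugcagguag
The median log2 ratio of the 16 was 0.01 with total reads. miR-21-5p stood 0.09 below it, 0.938 times the median ratio, and its ratio was lower than that of 11 of the 16 and higher than that of 5. The distance depended on the set: it was −0.028 from the median of the 3 miRNAs within 2-fold of its mean RPM, and 0.074, with the sign turned, from that of all others with 20 reads. The 16 ranged from −0.72 to 0.31, far wider than the distance of miR-21-5p from their median.

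miR-125b-5p, which represses ERBB2 messages and apoptosis genes, was the next miRNA above miR-21-5p in mean RPM. It had 10378 reads on MBP-MCP resin and 6539 on bare resin. There were 0.817 reads of miR-21-5p per read of miR-125b-5p on MBP-MCP resin and 0.755 on bare resin, a ratio of these ratios of 1.08 (1.03 to 1.13). Against this neighbour, miR-21-5p was thus relatively higher on MBP-MCP resin. let-7b-5p, of the tumour-suppressing let-7 family, gave the opposite, with 14131 reads on MBP-MCP resin and 6248 on bare resin. Per let-7b-5p read there were 0.600 reads of miR-21-5p on MBP-MCP resin and 0.790 on bare resin, a ratio of ratios of 0.759 (0.725 to 0.795). It had the highest log2 ratio of the 16 and was the neighbour against which miR-21-5p looked lowest on MBP-MCP resin.

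The neighbours just below were the most alike. miR-191-5p, a guide strand from an intron of DALRD3, had 5211 reads on MBP-MCP resin and 2978 on bare resin. There were 1.63 reads of miR-21-5p per read of miR-191-5p on MBP-MCP resin and 1.66 on bare resin, with a ratio of ratios of 0.981 (0.926 to 1.04). miR-93-5p, of the oncogenic miR-106b-25 cluster, had 3953 reads on MBP-MCP resin and 2195 on bare resin. Per miR-93-5p read there were 2.14 reads of miR-21-5p on MBP-MCP resin and 2.25 on bare resin, a ratio of ratios of 0.953 (0.895 to 1.02). Neither differed from miR-21-5p beyond counting error. By the smallest difference in log2 ratio, the 3 neighbours most like miR-21-5p over the 2 libraries were miR-191-5p (0.03 higher), miR-93-5p (0.07 higher) and let-7i-5p (0.09 higher). With 2 libraries such likeness is a description of 1 ratio.

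Across all 16, the ratio of ratios lay below 1 beyond counting error for 8 neighbours, above 1 for 5 and held 1 for 3. miR-27a-3p stood farthest from miR-21-5p, with 1345 reads on MBP-MCP resin and 1219 on bare resin. Per miR-27a-3p read there were 6.30 reads of miR-21-5p on MBP-MCP resin and 4.05 on bare resin, a ratio of ratios of 1.56 (1.43 to 1.70). miR-29a-3p, of a family that represses collagen messages, was next among the low ones, with 2977 reads on MBP-MCP resin, 2003 on bare resin and a ratio of ratios of 1.15 (1.08 to 1.24). miR-16-5p, a repressor of BCL2 and the most abundant miRNA of both libraries, was next to let-7b-5p among the high ones, with 34274 reads on MBP-MCP resin, 17015 on bare resin and a ratio of ratios of 0.852 (0.819 to 0.887). miR-21-5p therefore lay inside the spread that neighbours of like abundance showed between the resins.

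**Figure D3:**
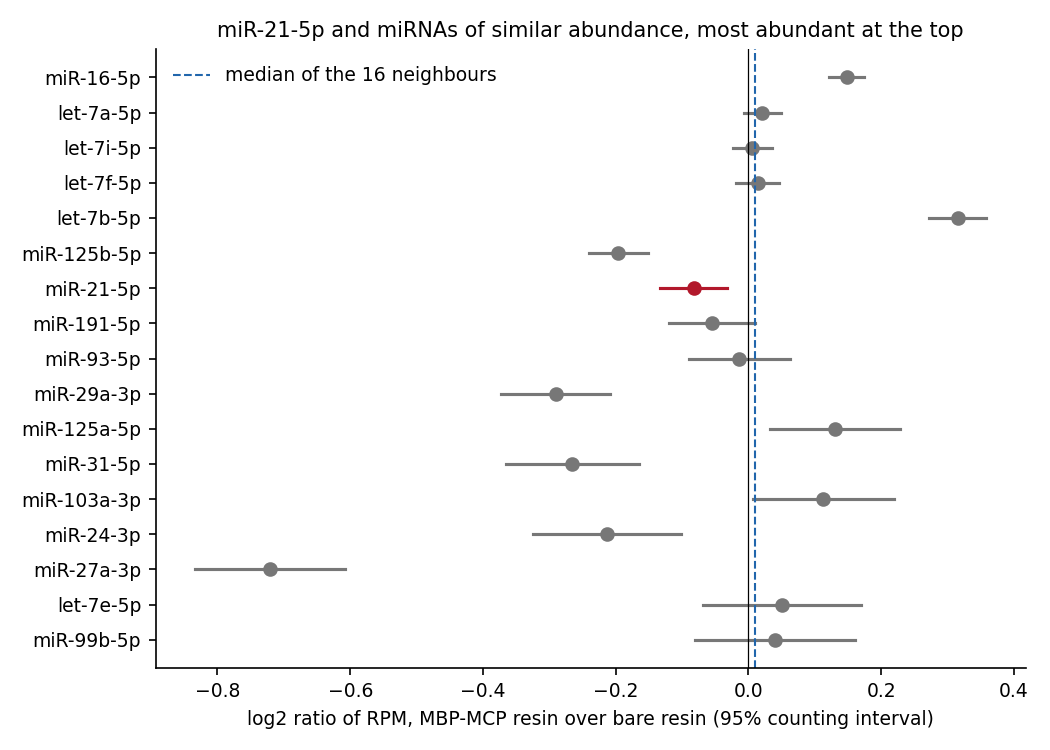
Log2 ratio of RPM on MBP-MCP resin over bare resin (x axis) for miR-21-5p and 16 miRNAs of similar abundance (y axis, most abundant at the top). Points are single ratios, lines are 95% counting intervals and the dashed line is the median of the neighbours. miR-21-5p lies at −0.08, between let-7b-5p at 0.31 and miR-27a-3p at −0.72.

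The other arm of the hairpin and the seed relative were far rarer. miR-21-3p, the passenger strand, had 47 reads on MBP-MCP resin and 26 on bare resin, at rank 108 on MBP-MCP resin and 115 on bare resin. It made up 0.552% of the reads of both arms on MBP-MCP resin (0.406 to 0.733) and 0.524% on bare resin (0.342 to 0.767). The guide had 180 reads per passenger read on MBP-MCP resin and 190 on bare resin, and the ratio of these ratios was 0.950 (0.564 to 1.57). At this depth a difference in arm use between the resins was not detectable. miR-590-5p had 2 reads on MBP-MCP resin and 4 on bare resin, too few to show a difference. Among the 321 miRNAs compared by sequence, miR-21-5p had 99.98% of the reads with its seed on MBP-MCP resin and 99.92% on bare resin.

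Pairing of the seed with SNHG15 was looked for as a description of the sequences. The site that pairs with bases 2 to 8 of miR-21-5p reads AUAAGCU. It was found in 0 of the 10 SNHG15 transcripts classed as lincRNA in GENCODE 29, 505 to 3116 bases long. The transcribed strand was searched, and SNHG15 transcripts of any other class were not. The shorter sites UAAGCU (bases 2 to 7) and AUAAGC (bases 3 to 8), which lie inside AUAAGCU, were found in 0 of 10 as well. Of 10051 other lincRNA transcripts in that range of lengths, 4.32% hold AUAAGCU, 16.8% hold UAAGCU and 14.4% hold AUAAGC. Which isoform the construct carries was not given in the sources used here. Among the 16 neighbours, 2 have a 7-base seed site in an SNHG15 transcript. With total reads, miR-24-3p, with a site in 10 of the transcripts, had a log2 ratio of −0.21. miR-29a-3p, with a site in 2 transcripts, had −0.29. TMM and DESeq2 scaling raise both by 0.20 and 0.28, in that order. The share of all measured miRNAs with such a site was not counted, and a link of site and ratio was not tested.

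Among the oncogenic miRNAs listed here, miR-21-5p was the most abundant on both resins. Of 25 others listed, 22 were in the table and 19 reached 20 reads in a library. All 22 together had 77770 RPM on MBP-MCP resin and 81453 RPM on bare resin. miR-21-5p made up 35.0% of the reads of the list and itself on MBP-MCP resin and 35.2% on bare resin. miR-93-5p was the next most abundant of those listed, as given above. miR-155-5p, induced by NF-kB, had 265 reads on MBP-MCP resin and 113 on bare resin, and the ratio of ratios of miR-21-5p to it was 0.732 (0.580 to 0.918). miR-221-3p, which represses the cell cycle inhibitor p27, had 1014 reads on MBP-MCP resin and 451 on bare resin, with a ratio of ratios of 0.764 (0.678 to 0.859). miR-92a-3p, of the miR-17-92 cluster, had 1319 reads on MBP-MCP resin and 452 on bare resin, with a ratio of ratios of 0.588 (0.525 to 0.659). Relative to each of these 3, miR-21-5p was lower on MBP-MCP resin by more than counting error. The reverse held for miR-9-5p, with 1215 reads on MBP-MCP resin, 1081 on bare resin and a ratio of ratios of 1.53 (1.40 to 1.67). These members were picked with their values in view. Over the 19, the log2 ratio was higher than that of miR-21-5p for 11 and lower for 8.

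The oncogenic list here and the tumour suppressor list below were chosen with earlier results of these data known. Their medians are therefore descriptions and not tests. The median log2 ratio of the 19 was 0.11 with total reads, against −0.16 for all 161 and 0.01 for the 16 neighbours. Scaling moved it to 0.31 with TMM factors, against 0.04 for all 161, and to 0.39 with DESeq2 size factors, against 0.12. In the list, 11 members lay above miR-21-5p and 8 below, and 0 reached 2-fold either way, against 5.59% of all 161. With at least 50 reads in a library, 0 miRNAs of any kind reached it. Tumour suppressor miRNAs were listed for comparison: 19 of 24 were in the table, 17 reached 20 reads, and their median was −0.20, with 7 above miR-21-5p and 10 below and 0 at 2-fold. The sign of that median also turned with DESeq2 size factors, to 0.08. The sets compared here overlap. For example, miR-93-5p is in the oncogenic list and the 16, and let-7b-5p in the tumour suppressor list and the 16. The 161 include the list members that reached 20 reads.

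**Figure D4:**
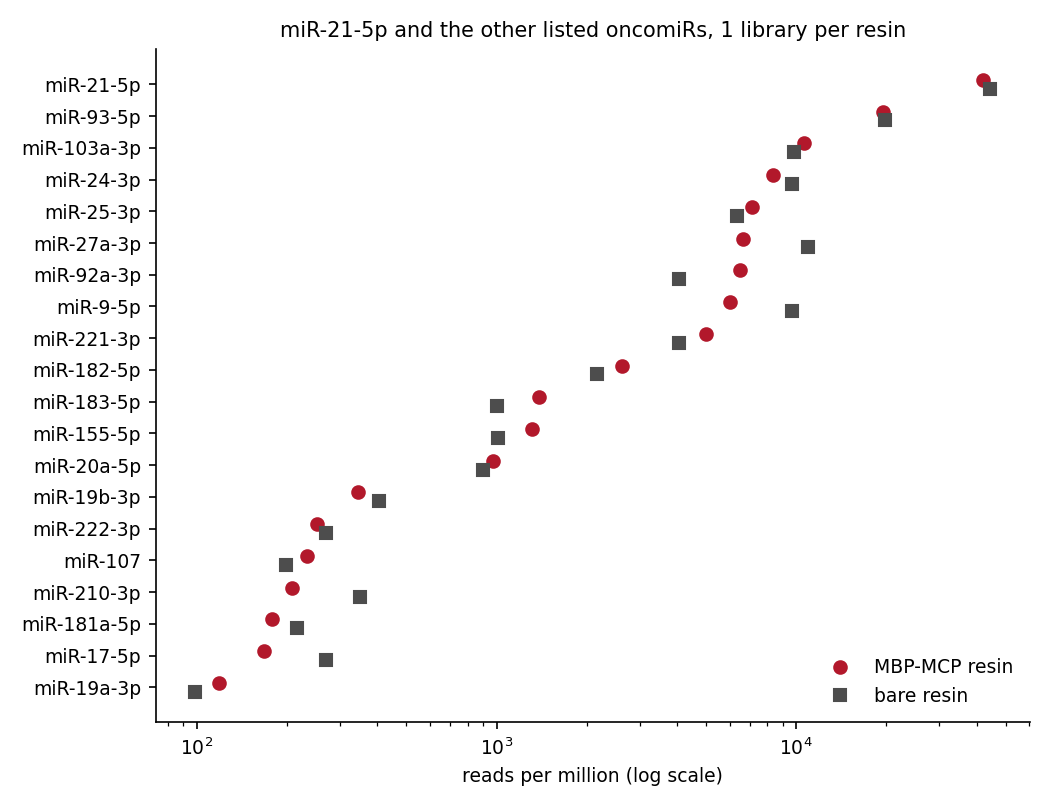
RPM (x axis, log scale) of miR-21-5p and the 19 other listed oncogenic miRNAs that reached 20 reads (y axis, ordered by the MBP-MCP library). Circles are the MBP-MCP library and squares the bare library, 1 library each. miR-21-5p stands at the top, at 41839 RPM on MBP-MCP resin and 44312 RPM on bare resin, followed by miR-93-5p at 19515 RPM on MBP-MCP resin and 19701 RPM on bare resin.

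Markers of the cell line and of other cell types were read beside these values. The 6 other miRNAs listed for mesenchymal or basal-like breast lines were all present, with 73109 RPM on MBP-MCP resin and 81606 RPM on bare resin. Most of this was miR-125b-5p, with 51234 RPM on MBP-MCP resin and 58691 RPM on bare resin. The rarest of them, miR-222-3p, had 51 reads on MBP-MCP resin and 30 on bare resin. Of 7 luminal epithelial miRNAs 2 were in the table, with 1 read each in each library. Of 4 leukocyte miRNAs, which belong to cells that also hold miR-21-5p, 2 were in the table, with 69.1 RPM on MBP-MCP resin and 108 RPM on bare resin together. Of these, miR-142-3p had 13 reads on MBP-MCP resin and 11 on bare resin, and miR-223-3p had 1 read in each library. Of 3 erythroid miRNAs 2 were measured, and they summed to 657 RPM on MBP-MCP resin and 574 RPM on bare resin. Nearly all of this was miR-486-5p, with 133 reads on MBP-MCP resin and 62 on bare resin. miR-144-3p had 0 reads on MBP-MCP resin and 2 on bare resin. The liver miRNA miR-122-5p had 4 reads on MBP-MCP resin and 0 on bare resin, and the muscle miRNA miR-1-3p had 9 reads on MBP-MCP resin and 1 on bare resin. The 3 neuronal miRNAs summed to 9943 RPM on MBP-MCP resin and 15438 RPM on bare resin. Nearly all of this was miR-9-5p, which is also in the oncogenic list, and miR-128-3p. miR-128-3p had 791 reads on MBP-MCP resin and 632 on bare resin. miR-124-3p had 8 reads on MBP-MCP resin and 7 on bare resin. The part of other sources of RNA in the level of miR-21-5p was not tested.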

How the data were processed

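Small RNA from 2 resin pulldowns of BT549 cells was sequenced, 1 library per group. Per the labels' protocols, RNA was purified with mirVana and libraries were built with a QIAseq kit. Per the submitters' processing notes the build is GRCh38. Not given in the sources used here are aligner, miRNA annotation and any use of molecular identifiers. Raw counts were deposited by the authors for 407 miRNAs, 50 of them numbered predictions, which stayed in the totals. The deposited values headed Tpm are reads per 1000000 reads (RPM); they sum to 999655 and 999650, so the RPM given here, from the count totals, are slightly higher. The log2 fold change, p-value and adjusted p-value columns were deposited by the authors, whose settings are not stated per the file headers. Columns of other samples numbered 0.

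From the counts, RPM, ranks, shares and ratios were computed (Python 3.11.15, scipy 1.17.1). log2 ratios carry a prior count of 0.5. Ratio intervals are exact conditional binomial, and ratios of ratios are conditional odds ratios of 2 miRNAs over 2 libraries with exact intervals, both at 95%. Scalings tried were TMM (edgeR 4.0.16), DESeq2 1.42.0 size factors and other totals. Neighbours were at most 10 on each side by mean RPM. Named miRNAs were miR-21-5p, its other arm, seed relatives and the 2 nearest neighbours on each side. Also named were the 2 with the highest and the 2 with the lowest log2 ratio. So were the 3 most alike and the most abundant of each library. The list members given with values and the neighbours with seed sites were picked with their values in view. So were the mesenchymal or basal-like, leukocyte, erythroid and neuronal miRNAs. The member and lists were chosen with earlier results of these data known. Interval steps were run on Poisson counts simulated around means taken from these counts. That checks the computation only, since no variation between pulldowns was simulated.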

Additional observations from a re-analysis of the deposited data

How the results depend on the processing

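No paired analysis was possible because each group held 1 library, and for the same reason none could be left out. Of 42 alternative values, 25 stayed close and 17 moved. Some of the 25 had little room to move, such as list counts that were 0 under every scaling. Those that moved include changes of sign. Close means within the counting interval of miR-21-5p, for a list median within that of the member at the median, and for a count or place within 1.5 times. The log2 ratio of miR-21-5p moved from −0.08 to 0.11 (TMM factors), 0.19 (DESeq2 size factors) and 0.041 (totals leaving out the 5 most abundant miRNAs), by the construction of those scalings. Relative to similar miRNAs it moved from −0.09 to −0.028 with the 3 miRNAs within 2-fold of its mean RPM and to 0.074 with all miRNAs of at least 20 reads. The numbers of miRNAs past 2-fold, 4 higher and 5 lower, became 75 and 79 with no filter on low counts and 0 and 0 with at least 50 reads, which test more and fewer miRNAs, and the number lower fell to 2 under TMM scaling and 1 under DESeq2 scaling. The median of the oncomiR list moved from 0.11 to 0.31 under TMM scaling and 0.39 under DESeq2 scaling. That of the tumour suppressor list moved from −0.20 to −0.00093 under TMM scaling, 0.081 under DESeq2 scaling and −0.26 with all measured members, and 1 member was past 2-fold lower in that last setting (miR-148a-3p, 5 reads on MBP-MCP resin and 11 on bare resin, seen afterwards). With named miRNAs only in the total, shares kept within counting error and ranks stayed at 7. The place of miR-21-5p among its neighbours, 12 of 17, became 13 when ordered by the MBP-MCP library alone and 11 by the bare library alone, since the set changed. Depth leaves miR-21-3p and miR-590-5p without a detectable difference.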
